A study of Mus musculus with 12 samples.

Results

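The nuclear pore and nuclear transport genes are the genes whose products build the pore complex of the nuclear envelope and carry proteins and RNA through it. Members were the probes whose gene symbol is Nup, Kpna, Kpnb, Ipo or Xpo followed by a number, or is Tnpo1 to Tnpo3, Ran, Ranbp1, Ranbp2, Rangap1, Rcc1, Cse1l, Tpr or Ndc1. This gave 88 of 45281 probes, for 46 of the 19057 genes with a symbol on the array, and 3 further genes of the rule, Ipo11, Nup35 and Tpr, had no probe under these names. The 46 genes comprised 20 components of the pore, 22 transport receptors and 4 genes of the Ran cycle.

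The pore is a ring-shaped assembly of nucleoporins. The Y-complex forms its outer scaffold rings, an inner ring and a membrane ring hold it in the envelope, and nucleoporins with phenylalanine-glycine repeats fill the central channel. Importins bind cargo with a nuclear localization signal and release it in the nucleus when they bind Ran-GTP, whereas exportins need Ran-GTP to bind their cargo. Nuclear transport has been studied widely in motor neuron disease and frontotemporal dementia, in which the RNA-binding protein TDP-43 leaves the nucleus.

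Transcripts were measured on Illumina mouse whole-genome BeadChips in NSC-34 cells, made by fusing mouse neuroblastoma with motor neurons of the spinal cord. There were 12 arrays. They held 4 of NSC-34/shPGRN cells, which carry a short hairpin RNA against mouse Grn, the gene of progranulin (PGRN), in the pRS vector and were selected with puromycin, 4 of NSC-34/hPGRN cells, which express human PGRN from pcDNA3 and were selected with G418, and 4 of vector control cells, labelled Control. These lines are called shPGRN, hPGRN and control cells below. No source used here names the vector of the control cells, so vector, drug and PGRN level cannot be told apart. All flasks went through stepwise serum reduction and were lysed 24 h after the change to 1% serum. The 4 arrays of a line came from subcultured flasks of 1 stable line, so the p-values measure the spread between flasks and not between independently made lines. RNA of whole flasks was measured, so less transcript per cell and fewer cells with the transcript cannot be told apart.

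Values are the deposited intensities, which are linear and background-subtracted, and each gene is represented by its brightest probe above background. A probe was tested if it exceeded the background limit of the array, between 12.0 and 12.7, on at least 4 of 12 arrays. Differences were tested in limma on log2 values over all 11278 genes that passed, and a gene counted as changed at an adjusted p under 0.05. Levels of different genes were not compared, since probes differ in brightness. Each array had between 19248 and 19701 probes above background, and arrays within a line correlated at 0.988 to 0.996 over log2 values of genes, which are not independent replicates. Grn itself was lower in shPGRN cells (612 ± 74.1, SD, n = 4) than in hPGRN cells (1048 ± 158; log2 fold change -0.71 ± 0.11 SE, limma adjusted p = 6.33e-05) and control cells (887 ± 55.2; log2 fold change -0.49 ± 0.11 SE, limma adjusted p = 0.00249). It did not pass in hPGRN against control cells (log2 fold change 0.22 ± 0.11 SE, limma adjusted p = 0.252). Whether this probe of mouse Grn reads the human transcript was not tested. The paper detected human PGRN by RT-PCR only in the overexpressing cells. Of 13 neuronal markers with a probe, 7 passed the filter (Isl1, Isl2, Lhx1, Phox2a, Slc18a3, Nefm and Prph), whereas others, among them Chat and Mnx1, did not. By RT-PCR, the paper reports Chat transcript as unaffected by PGRN depletion. Of these 7 markers, 4 (Isl1, Lhx1, Phox2a and Slc18a3) were lower and 0 higher in shPGRN than in hPGRN cells, beside 7.09% and 6.75% of all genes. Against control cells 3 (Lhx1, Phox2a and Slc18a3) were lower and 1 (Isl1) was higher, beside 6.85% and 7.32%. Isl1 was also higher in hPGRN than in control cells (log2 fold change 1.03). The part of these markers in the differences below was not tested. Of 5 tested markers of fibroblasts, macrophages, astrocytes and oligodendrocytes, 0 changed in any comparison in limma and 1 (Mbp) had an unadjusted p under 0.05, and no Schwann cell marker passed the filter.

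Among the members, 42 of 46 genes passed the filter, of which 18 encode pore components, 20 transport receptors and 4 proteins of the Ran cycle. Kpna4, Kpna7, Nup153 and Nup188 did not pass and have no fold change here. Some dim genes passed only through part of the arrays. Xpo1 was above background on 2, 2 and 1 arrays of shPGRN, hPGRN and control cells, Tnpo1 on 1, 1 and 3, and Ranbp2 on 3, 3 and 4. A total of 38 genes had a probe above background on all 12 arrays.

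In shPGRN cells, 5 members were higher and 0 lower than in hPGRN cells in limma, and 2 were higher and 3 lower than in control cells. Against hPGRN cells 10 of the 42 members had an unadjusted p under 0.05, beside 3014 of all 11278 genes. Of the 10 members, only Nup62 and Ipo5 were below 0. None changed between hPGRN and control cells in limma at the adjusted threshold (6.94% of all genes did so in either direction). In that comparison 4 members had an unadjusted p under 0.05, beside 2298 of all 11278 genes. Over all genes tested, 6.75% were higher and 7.09% lower in shPGRN than in hPGRN cells, 7.32% were higher and 6.85% lower than in control cells, and 3.72% were higher and 3.22% lower in hPGRN than in control cells. Against hPGRN cells all 5 members that changed were higher. The median log2 fold change of the 42 genes was 0.02 against hPGRN cells, 0.04 against control cells and -0.01 for hPGRN against control cells, beside 0.00, -0.00 and -0.00 over all genes. A difference of under 1.5-fold was found for 40, 42 and 42 of the 42 genes, and the 95% interval lay within 1.5-fold for 38, 39 and 41 of them. Over all 11278 genes, 97.6%, 97.5% and 99% differed by under 1.5-fold, and the interval lay within it for 10240, 10239 and 10714, so the members were near the shares of the whole array. The comparisons share arrays, so their counts are not independent of each other.

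**Figure D1:**
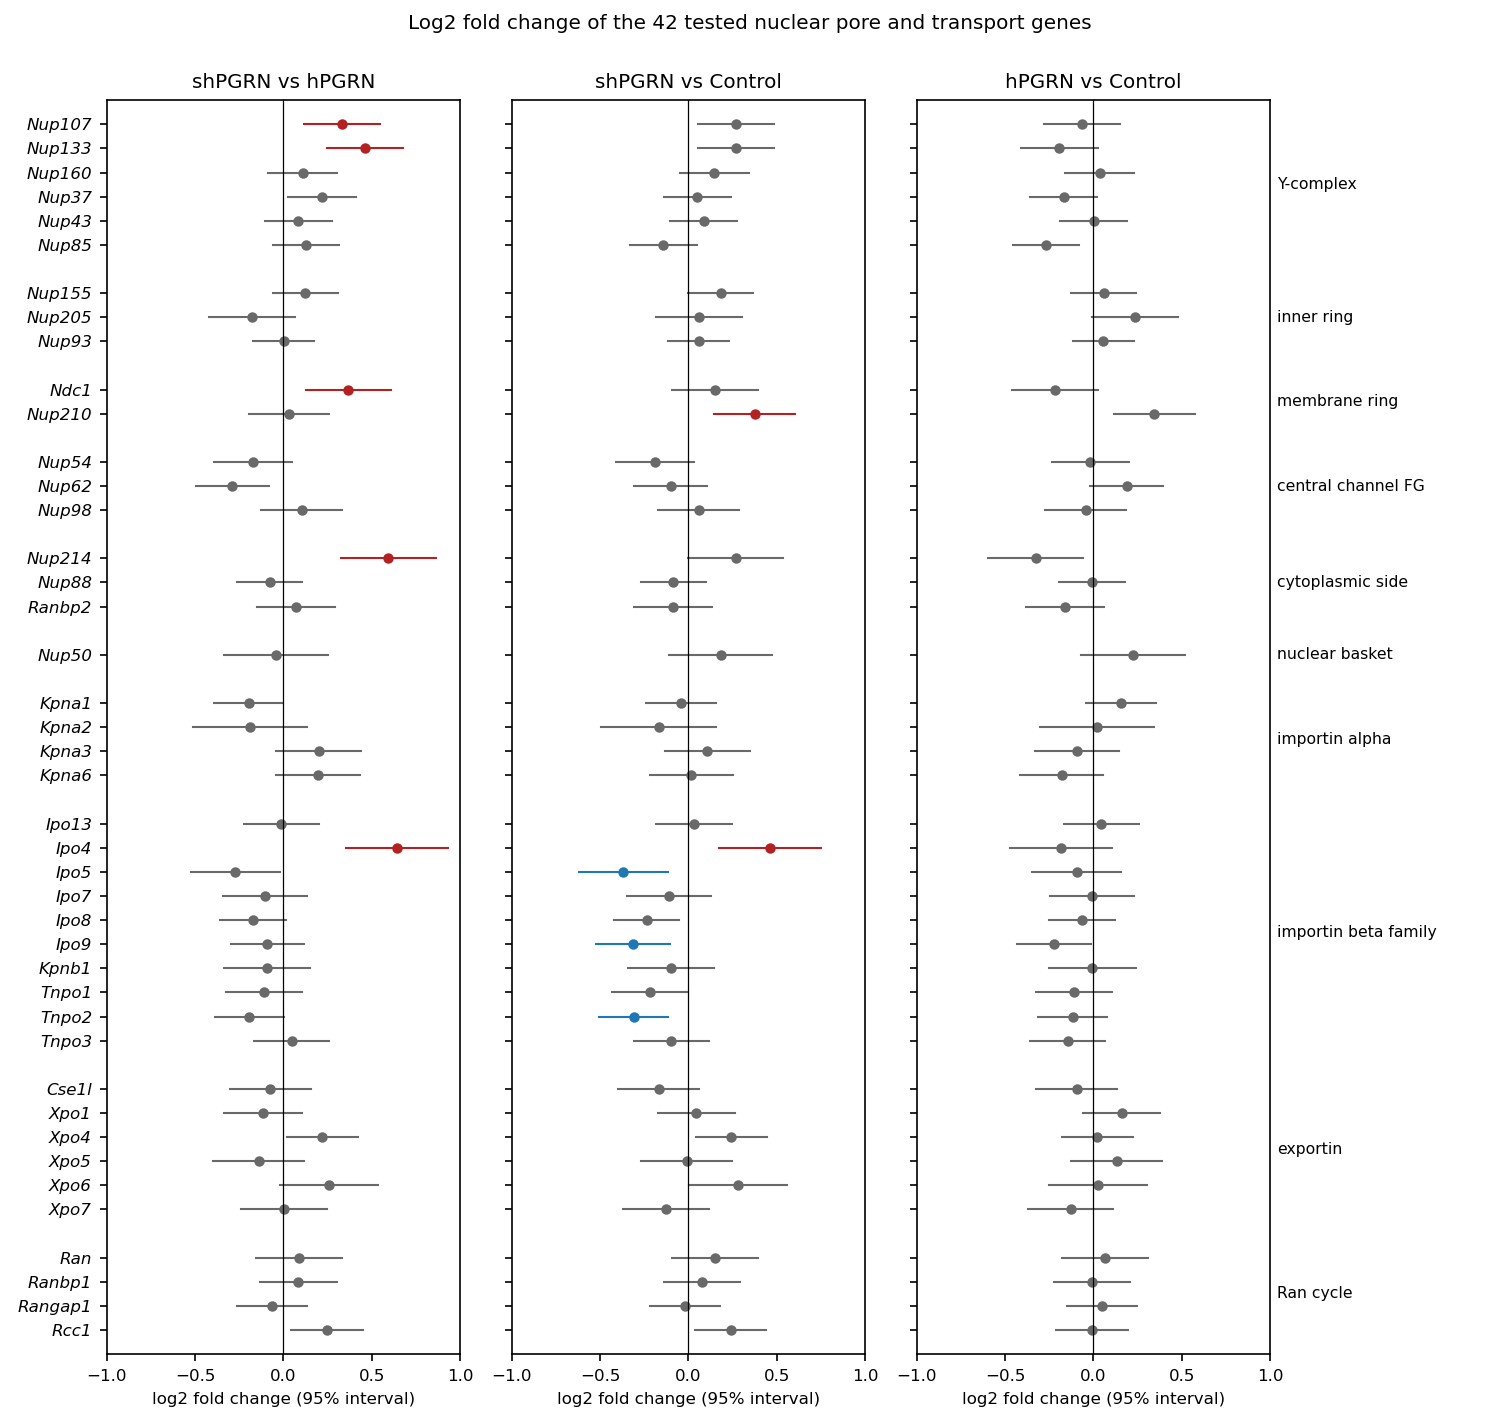
Each point is the log2 fold change of 1 of the 42 tested genes (x axis), with its 95% interval from limma, for the 3 comparisons; genes are ordered by role, red marks genes that were higher and blue genes that were lower at an adjusted p under 0.05. Points of the Y-complex lie to the right of 0 for all 6 member genes in the comparison of shPGRN with hPGRN cells, and points of the importin beta family lie to the left for 8 of 10. Over all genes tested, 50.6% were above 0 in this comparison.

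Of the pore components, 4 of 18 were higher in shPGRN than in hPGRN cells and 0 were lower, beside 6.75% and 7.09% of all genes, with a median log2 fold change of 0.09. The change was led by Nup214, a nucleoporin of the cytoplasmic face that takes part in mRNA and protein export. Nup214 intensities were 346, 336, 350.5 and 351 in shPGRN cells, 183, 235, 175 and 233 in hPGRN cells and 299, 309, 355 and 169.8 in control cells, in the order of replicates 1 to 4. All arrays of shPGRN cells exceeded all of hPGRN cells, while control cells spanned both, with 3 arrays near shPGRN cells and replicate 4 below every array of hPGRN cells. The difference passed the test against hPGRN cells (log2 fold change 0.59 ± 0.13 SE, limma adjusted p = 0.00295) but not against control cells (log2 fold change 0.27 ± 0.13 SE, limma adjusted p = 0.191). Without replicate 4 of control cells, Nup214 was also lower in hPGRN than in control cells (log2 fold change -0.50 ± 0.10 SE, limma adjusted p = 0.00403), whereas with it the value was -0.33 (limma, adjusted p = 0.144).

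The Y-complex is the scaffold that shapes the outer rings of the pore, and 6 of its genes were members tested here. All 6 had a log2 fold change above 0 in shPGRN against hPGRN cells (50.6% of all genes did), with a median of 0.17, and 2 of them changed. Seh1l, Sec13 and Ahctf1 also encode Y-complex subunits but fall outside the rule, and were at -0.22, 0.01 and 0.02 (limma, adjusted p = 0.112, 0.949 and 0.957). Against control cells they were at -0.26, -0.29 and 0.19 (limma, adjusted p = 0.0571, 0.0556 and 0.395). The Seh1l arrays of shPGRN cells did not overlap those of either other line. Nup133, a stem subunit of the Y, was at 1025, 1072, 1228 and 963 in shPGRN cells, 693, 811, 724 and 805 in hPGRN cells and 935, 976, 913 and 702 in control cells. Every array of shPGRN cells lay above every array of hPGRN cells (log2 fold change 0.46 ± 0.10 SE, limma adjusted p = 0.00390), and the arrays of control cells lay between or overlapped both. Nup107, its partner in the stem, was at 1179.5, 849, 1119.7 and 963 in shPGRN cells, 804, 878, 755 and 750.2 in hPGRN cells and 848, 735, 835 and 930.0 in control cells. Its groups overlapped, because replicate 2 of shPGRN cells was below replicate 2 of hPGRN cells, and the difference was smaller (log2 fold change 0.33 ± 0.10 SE, limma adjusted p = 0.0338). The Nup107 call was lost when replicate 1 or 3 of shPGRN cells or replicate 1, 3 or 4 of hPGRN cells was left out, with adjusted p from 0.0609 to 0.124 in limma.

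The other 4 member genes of the Y-complex did not pass the test. Nup37 ranged from 108 to 129 in shPGRN cells and from 85.3 to 96.3 in hPGRN cells, so these ranges did not overlap, and its adjusted p was 0.124 in limma. Nup85, Nup160 and Nup43 differed by 0.13, 0.11 and 0.09 on the log2 scale, with overlapping ranges. Against control cells, 5 of the 6 genes were above 0 and none passed (median 0.12), though Nup107, at 0.27 in the reported fit, passed at 0.35 without replicate 2 of shPGRN cells (limma, adjusted p = 0.0280) and at 0.34 with array weights (limma, adjusted p = 0.0253). For Nup85, an arm subunit, arrays in hPGRN cells (1096 to 1174) did not overlap those of control cells (1359 to 1456; log2 fold change -0.27 ± 0.09 SE, limma adjusted p = 0.0782).

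The membrane ring had a change in each of the comparisons of shPGRN cells. Ndc1, a transmembrane nucleoporin that anchors the pore in the envelope, was at 154, 144, 159 and 191 in shPGRN cells, 85.3, 96.8, 126 and 132 in hPGRN cells and 110.0, 183, 162 and 109 in control cells. The arrays of shPGRN cells all lay above those of hPGRN cells (log2 fold change 0.37 ± 0.12 SE, limma adjusted p = 0.0382), while control cells fell into 2 low and 2 high arrays that spanned both. Without replicate 1, 3 or 4 of shPGRN cells or replicate 1 or 2 of hPGRN cells, the adjusted p of Ndc1 in limma rose to between 0.0590 and 0.129. Nup210, the transmembrane nucleoporin also called gp210, differed in another pattern, at 2959.6, 3452, 3386 and 2979 in shPGRN cells, 3281, 3124, 2866 and 3206 in hPGRN cells and 2416, 2905, 2666 and 1888 in control cells. The shPGRN arrays all lay above the control arrays, of which replicate 4 was the lowest (log2 fold change 0.38 ± 0.11 SE, limma adjusted p = 0.0235). The hPGRN arrays overlapped 1 control array and did not pass the test against control cells (log2 fold change 0.34 ± 0.11 SE, limma adjusted p = 0.0625). Leaving out replicate 4 of control cells gave a log2 fold change of 0.26 for shPGRN against control cells (limma, adjusted p = 0.0963), and the call was also lost without replicate 2 or 3 of shPGRN cells (0.0704 and 0.0678) and without replicate 1 of control cells (0.0503). Without replicate 2 of control cells, Nup210 was higher in hPGRN than in control cells, at 0.43 (limma, adjusted p = 0.0254).

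**Figure D2:**
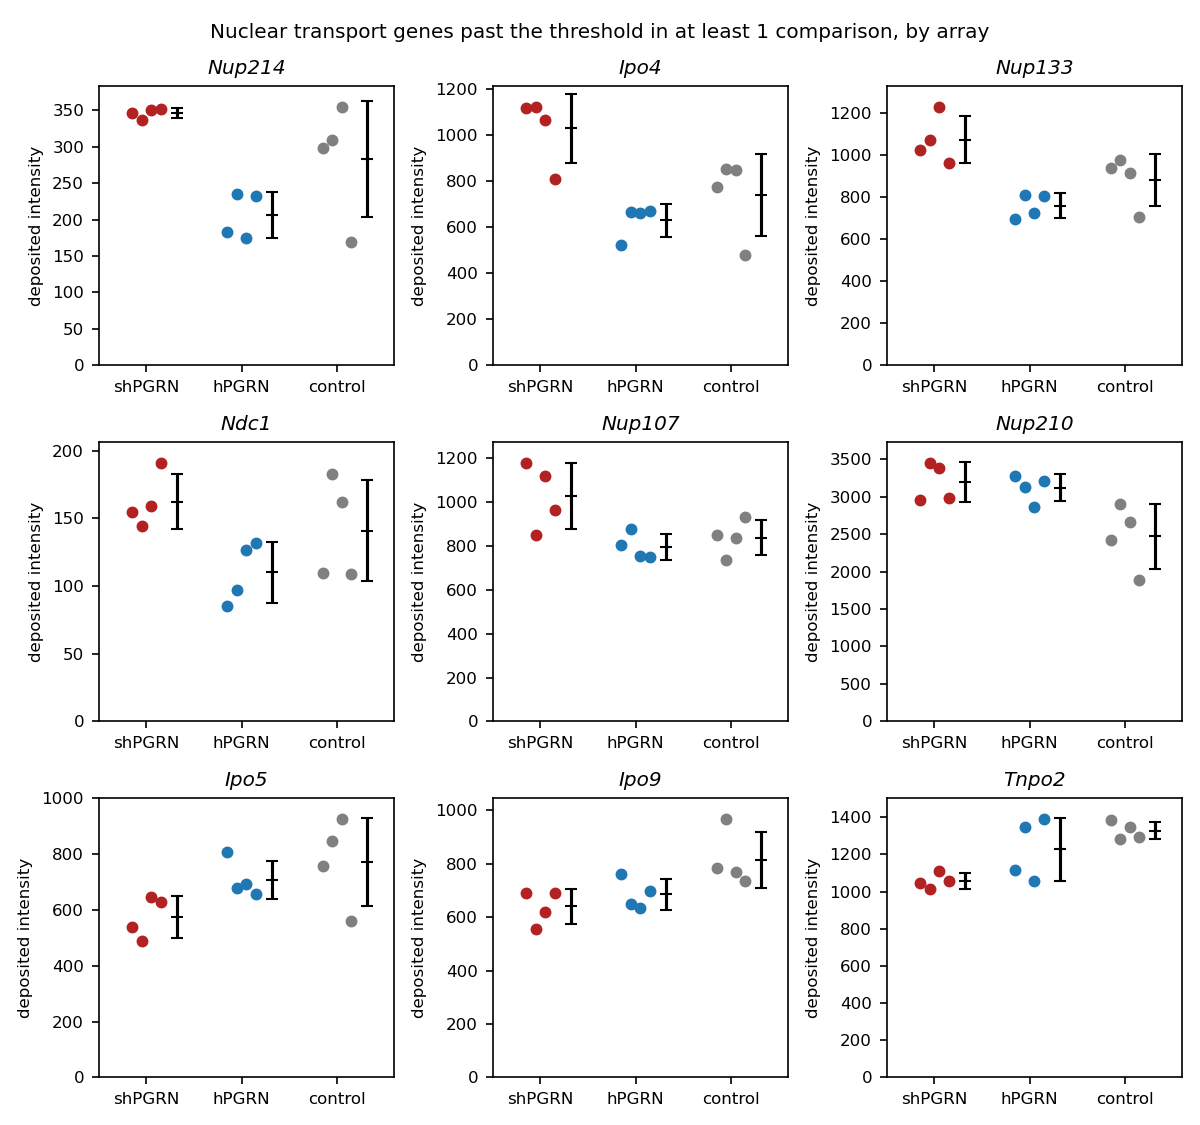
Deposited intensity (y axis, linear, from 0) of the 9 genes that changed in at least 1 comparison; each dot is 1 of the 4 arrays of a line, in the order of replicates 1 to 4, and the bar beside it gives the mean and SD. Nup214, Ipo4, Nup133 and Ndc1 have all arrays of shPGRN cells above those of hPGRN cells, and replicate 4 of control cells is the lowest control array for Nup214, Ipo4, Nup133, Ndc1, Nup210, Ipo5 and Ipo9.

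Among the members, the inner ring, the central channel, the nuclear basket and the rest of the cytoplasmic face had no gene that changed. Nupl2, a gene of the cytoplasmic face that falls outside the rule, did change and is given below. Nup62, whose phenylalanine-glycine repeats line the channel, was closest, at 1093, 802, 1032 and 1030.4 in shPGRN cells and 1316, 1207, 1206 and 1149 in hPGRN cells. All arrays of shPGRN cells were below those of hPGRN cells, but the difference stayed just outside the threshold (log2 fold change -0.29 ± 0.10 SE, limma adjusted p = 0.0552), and control cells, at 992 to 1206, overlapped both. It passed without replicate 1 of shPGRN cells (limma, adjusted p = 0.0448) or replicate 4 of control cells (0.0418). Nup62 also passed with the filter set to all 12 arrays (0.0364) and with genes averaged over their probes above background (0.0461). Nup155, an inner ring scaffold, was at 298 to 343 in shPGRN and 256 to 319 in control cells (log2 fold change 0.18 ± 0.09 SE, limma adjusted p = 0.195). Nup50, which works at the basket with importin alpha, had replicate 4 of control cells at 60.6, far under the other 3 control arrays, and passed the test in no comparison (log2 fold change of -0.04 against hPGRN cells, limma, adjusted p = 0.897). Nup88, the partner of Nup214 at the cytoplasmic face, overlapped in all lines, at 2471 to 2991 in shPGRN, 2717 to 2917 in hPGRN and 2663 to 3164 in control cells.

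Transport receptors carry the cargo through the pore. Of the 20 tested, 1 was higher in shPGRN than in hPGRN cells (6.75% of all genes were), and 1 was higher and 3 lower than in control cells (7.32% and 6.85% of all genes). Their median log2 fold change was -0.09 and -0.10 in these comparisons, with 13 of 20 below 0 in each. All 4 genes that changed belong to the importin beta family, in which 8 of 10 genes were below 0 in both comparisons of shPGRN cells and 9 of 10 in hPGRN against control cells. Tnpo1 is counted as below 0 in each. It passed the filter only through arrays of control cells, so its sign against control cells was favoured by the filter. Over all genes, 50.6% were above 0 in shPGRN against hPGRN cells, 49.8% in shPGRN against control cells and 49.4% in hPGRN against control cells.

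Ipo4, an importin that carries histones and ribosomal proteins, was the 1 member of its family that was higher. Ipo4 intensities were 1121, 1124, 1066 and 809 in shPGRN cells, 524, 667, 661 and 669.6 in hPGRN cells and 777, 856, 850.1 and 479 in control cells. All arrays of shPGRN cells were above those of hPGRN cells (log2 fold change 0.64 ± 0.14 SE, limma adjusted p = 0.00269), which is a fold of 1.56, the largest among the members in this comparison. Against control cells the ranges overlapped, since replicate 4 of shPGRN cells lay within the range of the control arrays, and the difference was smaller (log2 fold change 0.46 ± 0.14 SE, limma adjusted p = 0.0286). Without replicate 4 of control cells the latter fell to 0.28 (limma, adjusted p = 0.113), and without replicate 1, 2 or 3 of shPGRN cells its adjusted p was 0.0803, 0.0829 and 0.0677.

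The 3 importins that were lower in shPGRN than in control cells carry different cargo. Tnpo2, a transportin that imports RNA-binding proteins, was at 1045, 1014, 1113 and 1058 in shPGRN cells, 1114, 1345, 1054 and 1392 in hPGRN cells and 1383, 1285, 1349.6 and 1294 in control cells. shPGRN arrays were all below control arrays (log2 fold change -0.31 ± 0.09 SE, limma adjusted p = 0.0293), and hPGRN cells had 2 arrays near each. Ipo9, an importer of histones, was at 690.2, 556, 620.4 and 692 in shPGRN cells, 759.6, 649, 633 and 697 in hPGRN cells and 784, 968, 769 and 735 in control cells. Its highest array in shPGRN cells was below the lowest in control cells (log2 fold change -0.31 ± 0.10 SE, limma adjusted p = 0.0374), while hPGRN cells overlapped both. Ipo5, which imports ribosomal proteins and histones, was at 539, 489, 646 and 630.3 in shPGRN cells, 809, 677, 693 and 657 in hPGRN cells and 758, 846, 927 and 559 in control cells. Replicate 4 of control cells fell into the range of shPGRN cells, so these groups overlapped (log2 fold change -0.37 ± 0.12 SE, limma adjusted p = 0.0442).

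These 3 calls were close to the threshold. Leaving out 1 array ended the Tnpo2 call for replicates 1, 2 and 4 of shPGRN cells and 1 and 3 of control cells (limma, adjusted p from 0.0537 to 0.0738). The Ipo9 call ended without replicate 2 or 3 of shPGRN cells or replicate 1, 2 or 3 of control cells (limma, adjusted p from 0.0510 to 0.134). It was also lost with the replicate number as a block (limma, adjusted p = 0.0550). The Ipo5 call ended without replicate 1 or 2 of shPGRN cells, replicate 2, 3 or 4 of hPGRN cells or replicate 1, 2 or 3 of control cells (limma, adjusted p from 0.0519 to 0.160), while without replicate 4 of control cells it was stronger, with a log2 fold change of -0.50 (limma, adjusted p = 0.00297).

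Among the members, importin alpha genes, exportins and the Ran cycle had no change in any comparison of the reported fit. Xpot, an exportin gene that falls outside the rule, did change and is given below. Without replicate 1 of control cells, the exportin Xpo6 was higher in shPGRN than in control cells, at 0.42 (limma, adjusted p = 0.0296) beside 0.28 with it (limma, adjusted p = 0.177). Kpna1, an adaptor that recognises nuclear localization signals, was at 180.3, 157, 185 and 166 in shPGRN cells and 255, 202, 190.3 and 187 in hPGRN cells, with every array of shPGRN cells below those of hPGRN cells by a small margin (log2 fold change -0.20 ± 0.10 SE, limma adjusted p = 0.188). Kpna2 varied widely within a line, from 36.5 to 124 over the shPGRN arrays. Among 6 exportins, Xpo4 was dim and ranged from 29.3 to 47.3 in shPGRN cells and from 18.0 to 28.5 in hPGRN cells (log2 fold change 0.22 ± 0.10 SE, limma adjusted p = 0.146). Cse1l, which returns importin alpha to the cytoplasm, differed by -0.07 from hPGRN cells and by -0.17 from control cells on the log2 scale. Of the Ran cycle, Rcc1, the nucleotide exchange factor that makes Ran-GTP in the nucleus, was at 190.0, 164, 142 and 193 in shPGRN cells, 153, 118, 126 and 138 in hPGRN cells and 154, 113, 145 and 127 in control cells, and its difference of 0.25 against hPGRN cells did not pass (limma, SE 0.10, adjusted p = 0.0989). Ran, the transport GTPase, differed by 0.09, 0.15 and 0.06 on the log2 scale in the 3 comparisons, and Ranbp1 and Rangap1 by less than their standard error in all of them.

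**Figure D3:**
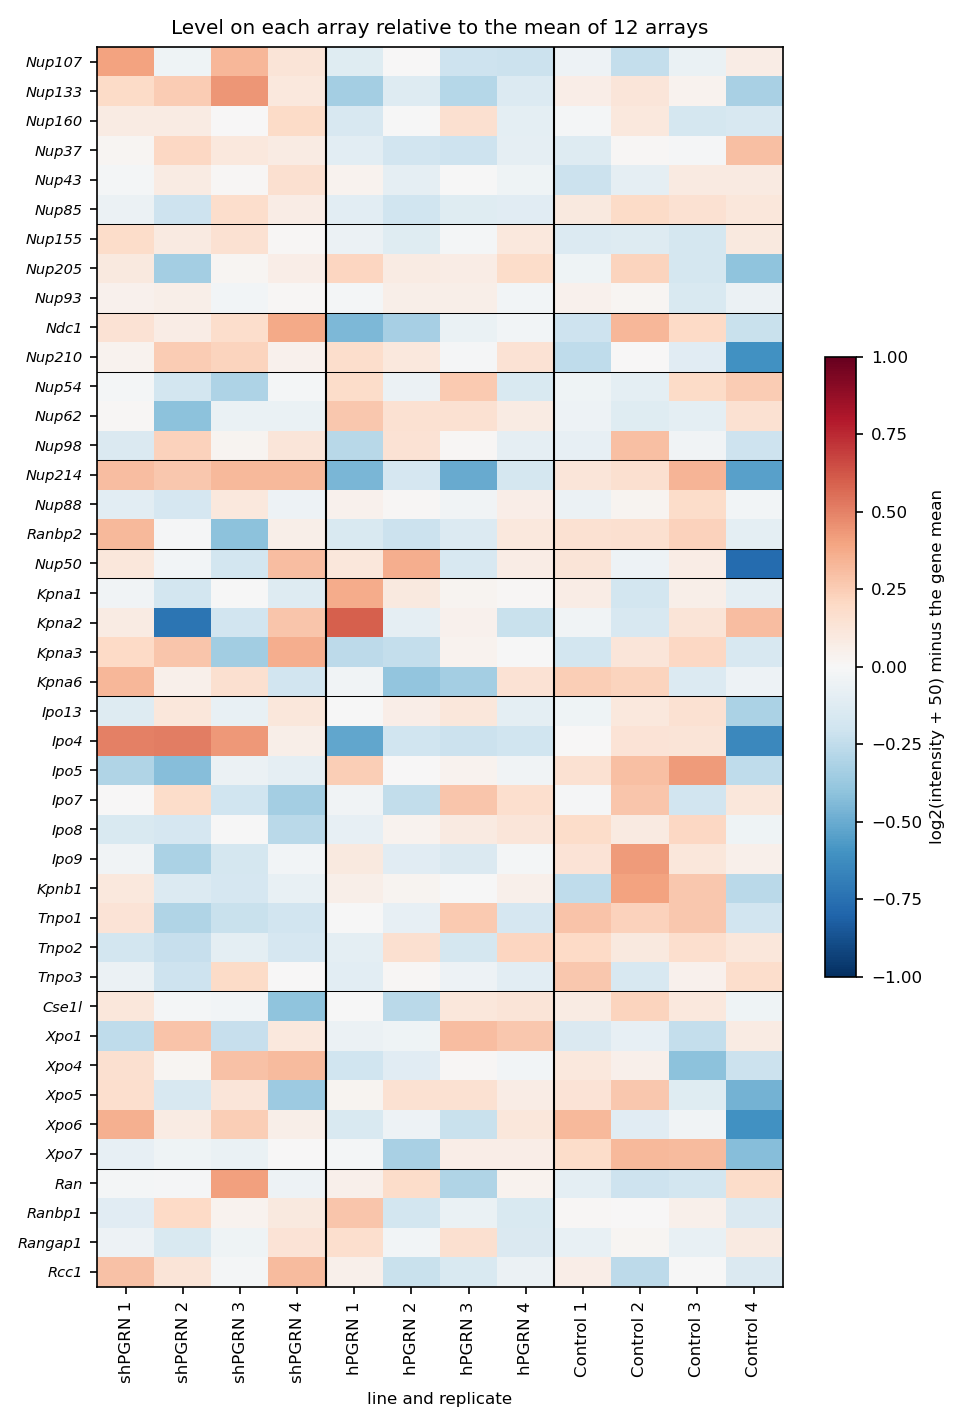
Each cell gives log2 of the intensity plus 50 (values below 0 set to 0) minus the mean of the gene over 12 arrays, from blue (lower) to red (higher), for the 42 tested genes in rows by role and the arrays in columns by line. Replicate 4 of control cells holds the lowest control value for 20 of the 42 genes, and the largest deviations in it are those of Nup50, Ipo4, Nup210, Xpo6 and Nup214.

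Replicate 4 of control cells stood apart for many members. It was the lowest of its line in 20 of 42 members, beside 30.9% of all genes tested, and replicate 2 of shPGRN cells was the lowest in 16, beside 29.1%. Without replicate 4 of control cells, 5 members were higher and 1 was lower in shPGRN than in hPGRN cells, 0 were higher and 4 lower than in control cells, and 0 were higher and 1 lower in hPGRN than in control cells. Over all genes the same fit had 7.41% higher and 7.70% lower against hPGRN cells, 6.48% and 6.27% against control cells, and 3.23% and 3.01% for hPGRN against control cells. Its part in the other differences was not tested.

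Ranges of arrays that did not overlap were counted as a second view. Against hPGRN cells, shPGRN arrays were all higher for 6 members and all lower for 3, beside 9.37% and 9.84% of all genes. Against control cells the counts were 1 and 2, beside 9.45% and 8.59%, and for hPGRN against control cells 0 and 1, beside 6.92% and 5.94%.

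Other probes did not always behave like the one tested. Of 14 members with several probes above background, all 14 had probes that differed in sign or in call in at least 1 comparison. Signs counted as different also where both values lay near 0, as for Nup93 against hPGRN cells (0.002 ± 0.09 SE and -0.015 ± 0.10 SE). No such share over all genes was counted, so this count cannot be read as particular to the members. For Nup133, a probe at 89.8 in shPGRN and 65.6 in hPGRN cells gave a log2 fold change of 0.23, and a further probe near background gave -0.06. Averaging the probes above background gave 0.21 for Nup133 (limma, adjusted p = 0.0658). The other 2 probes of Tnpo2 gave 0.01 and -0.05 against control cells, beside -0.31 for the tested probe, and the mean of the 3 probes gave -0.11 (limma, adjusted p = 0.438). The second probe of Ipo9, near background, gave -0.15 against control cells beside -0.31 for the tested probe, and their mean gave -0.23 (limma, adjusted p = 0.0507). Nup214, Ipo4, Ndc1, Nup107, Nup210 and Ipo5 had no second probe above background.

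Promoter sequence is shown for the 5 genes that were higher in shPGRN than in hPGRN cells, as the 150 bases upstream of the annotated start, on the strand of the gene, from RefSeq (GRCm38.p6). Capitals mark matches on either strand. The letters CCGGAAG are an ETS site, and the NRF1 site was searched by its usual 10-letter palindrome. GGGCGG is the letters of a GC box. A CCAAT box was searched as those 5 letters. The E-box was read as CACGTG, and no matches overlap in the windows shown.
Nup214 (chr2:31974300-31974449, plus strand): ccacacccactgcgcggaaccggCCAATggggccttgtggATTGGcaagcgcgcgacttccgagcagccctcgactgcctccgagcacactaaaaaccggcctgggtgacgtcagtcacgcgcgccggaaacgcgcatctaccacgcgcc
Nup133 (chr8:123949266-123949415, minus strand): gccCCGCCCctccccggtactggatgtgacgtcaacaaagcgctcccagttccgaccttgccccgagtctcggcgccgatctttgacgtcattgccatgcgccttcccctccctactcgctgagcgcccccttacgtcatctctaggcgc
Nup107 (chr10:117792706-117792855, minus strand): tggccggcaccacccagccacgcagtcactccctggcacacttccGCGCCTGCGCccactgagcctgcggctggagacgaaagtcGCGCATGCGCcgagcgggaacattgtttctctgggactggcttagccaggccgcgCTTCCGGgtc
Ndc1 (chr4:107367897-107368046, plus strand): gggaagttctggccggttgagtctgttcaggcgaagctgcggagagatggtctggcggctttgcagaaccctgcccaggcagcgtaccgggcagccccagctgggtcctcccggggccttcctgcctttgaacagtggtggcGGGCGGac
Ipo4 (chr14:55635685-55635834, minus strand): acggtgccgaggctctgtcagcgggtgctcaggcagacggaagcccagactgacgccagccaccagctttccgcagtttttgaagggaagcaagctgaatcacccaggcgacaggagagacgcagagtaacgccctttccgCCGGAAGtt

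The 5 windows do not share 1 motif. Ipo4 and Nup107 hold an ETS match near the end of the window that adjoins the start, Nup107 also holds 2 NRF1 matches, Nup133 and Ndc1 each hold a GC box, and Nup214 holds 2 CCAAT boxes on opposite strands. A window was found for 38 of 46 members, of which 6 (15.8%) held the ETS letters, beside 5.68% of 27025 genes with a window. NRF1 letters were in 5 (13.2%), beside 3.22%, and E-box letters in 6 (15.8%), beside 4.30%. GC boxes were in 21 (55.3%), beside 29.0%, and CCAAT in 15 (39.5%), beside 25.3%. These are letter matches and not measured binding sites. The 27025 genes were not limited to those tested on the array, and no share over the tested genes was counted. So the gaps cannot be read as particular to the members.

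A list of 38 other genes of nuclear transport and mRNA export, chosen with earlier results known, had 31 genes tested. Against hPGRN cells, 4 were higher and 0 lower in shPGRN cells, beside 6.75% and 7.09% of all genes, with a median log2 fold change of 0.06. The paper lists GLE1, under another symbol, among the genes most down-regulated in shPGRN against hPGRN cells. Here Gle1 was at -0.11 and did not pass (limma, SE 0.08, adjusted p = 0.440). Whether the paper's value came from the same probe was not tested. Nupl2, the former name of the nucleoporin gene Nup42, whose product assists mRNA export at the cytoplasmic face, was at 664, 849.6, 692 and 719 in shPGRN cells, 436, 411, 524 and 416 in hPGRN cells and 466, 509.7, 521 and 398 in control cells. shPGRN arrays were above both other lines without overlap, by 0.63 against hPGRN cells (limma, SE 0.10, adjusted p = 0.000158) and 0.56 against control cells (limma, adjusted p = 0.000585). Thoc5, a subunit of the THO complex that couples transcription to mRNA export, was at 1099.5, 1299, 1190.0 and 1171 in shPGRN cells, 824, 882, 854 and 857 in hPGRN cells and 977, 958, 996 and 925 in control cells. It too was highest in shPGRN cells (log2 fold change 0.44 ± 0.08 SE, limma adjusted p = 0.000757), also against control cells (log2 fold change 0.28 ± 0.08 SE, limma adjusted p = 0.0249). Rangrf, a Ran-binding factor, was lower in hPGRN cells (1033 to 1093) than in shPGRN (1293 to 1366; log2 fold change 0.32 ± 0.08 SE, limma adjusted p = 0.0105) and control cells (1233 to 1366; limma, adjusted p = 0.0481). Phax, an adaptor for export of small nuclear RNA, was higher in shPGRN than in hPGRN cells (log2 fold change 0.42 ± 0.14 SE, limma adjusted p = 0.0446), with control arrays spread over both. The mean of its probes above background gave 0.28 (limma, adjusted p = 0.129), and the replicate number as a block also ended the call (limma, adjusted p = 0.0571). Leaving out 1 array ended the Phax call for replicates 1, 2 and 4 of shPGRN and 2, 3 and 4 of hPGRN cells (limma, adjusted p from 0.0745 to 0.139), the Thoc5 call against control cells for replicates 2 and 3 of shPGRN and 4 of control cells (0.0549 to 0.0774), and the Rangrf call against control cells for every array but replicate 2 of shPGRN cells (0.0540 to 0.139), and with the block (0.0792).

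Against control cells, 3 genes of this list were higher and 1 was lower in shPGRN cells, beside 7.32% and 6.85% of all genes, with a median of 0.09. Xpot, the exportin of transfer RNA, was at 3892, 4214, 3659 and 3626 in shPGRN cells, 3248, 4040.1, 3322 and 3836 in hPGRN cells and 2911, 2732, 2711 and 2172 in control cells. Both modified lines lay above control cells without overlap (log2 fold change 0.54 ± 0.10 SE, limma adjusted p = 0.000810 for shPGRN; log2 fold change 0.45 ± 0.10 SE, limma adjusted p = 0.00896 for hPGRN cells). Thoc7, another THO subunit, was lower, at 2811 to 3204 in shPGRN and 3266 to 3639 in control cells (log2 fold change -0.26 ± 0.09 SE, limma adjusted p = 0.0440), and this call ended without any 1 of replicates 1, 2 and 3 of shPGRN, 1, 2 and 4 of hPGRN and 1, 3 and 4 of control cells (0.0503 to 0.110), as it did with the replicate number as a block (0.0604).

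Proliferation markers were mixed. Of 14 tested, 2 were higher (Tk1 and Rrm2) and 1 lower (Mcm5) in shPGRN than in hPGRN cells, beside 6.75% and 7.09% of all genes. Against control cells, 1 (Tk1) was higher and 1 (Mcm5) lower in shPGRN cells, beside 7.32% and 6.85%. In hPGRN cells, 0 were higher and 1 (Rrm2) was lower than in control cells, beside 3.72% and 3.22%. There Rrm2 was at -0.57 (limma, adjusted p = 0.00373) and 10 of 14 markers were below 0, beside 49.4% of all genes above 0. The markers had a median of 0.01 for shPGRN against hPGRN cells and -0.08 for hPGRN against control cells. Their part in the differences above was not tested.

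**Figure D4:**
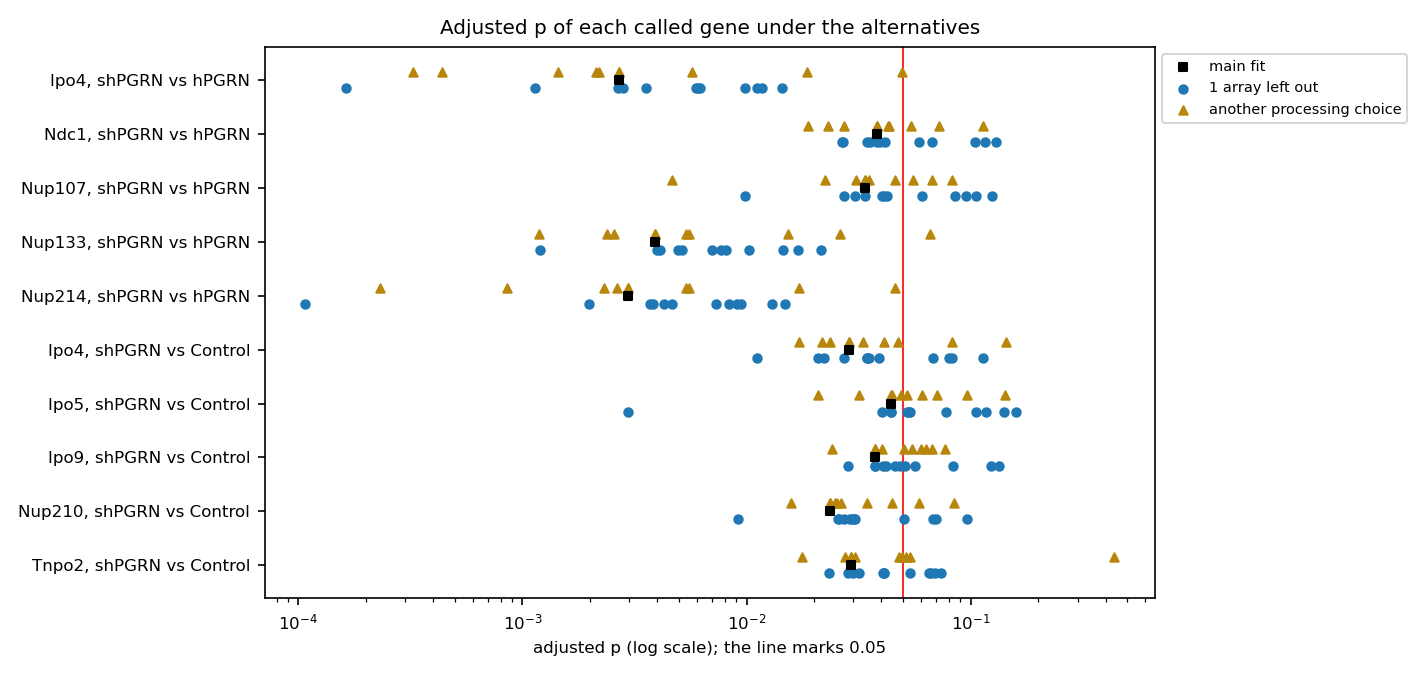
Adjusted p (x axis, log scale) of each member gene that changed, in the reported fit (square), with 1 array left out (circle) and under another processing choice (triangle); the line marks 0.05. Ipo4 and Nup214 against hPGRN cells stay left of the line under all 22 alternatives, whereas the 5 member calls of shPGRN against control cells cross it under 6 to 13 of them.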

How the data were processed

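The intensity values that the authors deposited, for 45281 probes on 12 arrays, are linear, background-subtracted and equally distributed over arrays. The study's methods describe lumi normalization and empirical Bayes testing with FlexArray, but no source used here says how this table was made. On each array, 31.7% to 31.8% of values are below 0. They were corrected with normexp (offset 50), quantile normalized and set on a log2 scale in limma 3.58.1 (R 4.3.3), which shrinks fold changes of dim genes. A further table has 24 columns whose names match no sample and was not used. Annotation gave 34885 probes 1 gene symbol, 18 several and 10378 none.

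The background limit came from the mode of each array and the spread below it, at a one-sided probability of 0.05. A mean per line was fitted over all 12 arrays, with Benjamini-Hochberg adjustment over 11278 genes, and the fit was tested on simulated data. Members, gene lists and tests were chosen with earlier results of these data known. Named are genes that changed, the member with the smallest p in roles without one, members whose probes differ, and up to 6 other transport genes, and a few more (Nup37, Nup85, Nup160, Nup43, Kpna2, Cse1l and the Ran genes) were chosen after their values were seen. Replicate numbers were not taken as pairs, since over 12 same-numbered pairs correlations ran from -0.158 to 0.127. Alternatives changed the background correction, filter, probe choice, arrays, weights and block. The number of arrays limits the precision.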

Additional observations from a re-analysis of the deposited data

Results flagged for a closer look

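Of 147 groups of 4 arrays checked, 5 held an array far from the other 3 (Dixon's ratio), and chance gives such a flag in about 5% of groups. Ipo4 was at 524 in replicate 1 of hPGRN cells, beside 661 to 669.6 in the others. Nup85 was at 1096 in replicate 2 of hPGRN cells, beside 1163 to 1174. Ran was at 659 in replicate 3 of shPGRN cells, beside 465 to 478. Tnpo1, a dim gene, was at 4.23 in replicate 4 of control cells, beside 22.9 to 25.5. Thoc7 was at 3266 in replicate 2 of control cells, beside 3585 to 3639.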

How the results depend on the processing

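The main counts were 5 higher and 0 lower in shPGRN than in hPGRN cells, 2 and 3 against control cells, and 0 and 0 for hPGRN against control cells. On the deposited values on a log2 scale they were 3 higher against hPGRN cells and 0 higher and 1 lower against control cells. An offset of 16 gave 3, 0 and 0, and no filter gave 3 higher against hPGRN and 0 lower against control cells. With probes above background on all 12 arrays, 1 member was lower against hPGRN cells, and 1 was higher and 1 lower in hPGRN than in control cells. The mean of the probes gave 1 lower against hPGRN and 0 lower against control cells, the fit of only the 2 lines gave 1 lower against control cells, and array weights gave 1 higher in hPGRN and 3 higher in shPGRN than in control cells. Leaving out 1 array gave 3 to 5 higher and 0 to 1 lower against hPGRN cells, 0 to 2 higher and 0 to 4 lower against control cells, and 0 to 1 in each direction for hPGRN against control cells. Over all genes these fits had 5.19% to 7.41% higher and 5.28% to 7.70% lower against hPGRN cells. Against control cells they had 6.06% to 7.26% and 5.16% to 6.86%, and for hPGRN against control cells 2.33% to 4.03% and 2.00% to 3.49%. Shares over all genes were not counted under the other alternatives. The cause of these changes in the counts was not tested. No call reversed its direction. Testing each of 20694 probes as its own row, an alternative chosen after seeing the data, ended the Ipo5 call against control cells (limma, adjusted p = 0.0542) and no other call of the members' tested probes; the other transport genes were not listed under it.

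The replicate number as a block left 5 higher and 0 lower against hPGRN cells, and 2 higher and 2 lower against control cells, where Ipo9 was lost. Of the other transport genes it ended the calls of Phax, of Thoc7 and of Rangrf in hPGRN against control cells (limma, adjusted p = 0.0571, 0.0604 and 0.0792). Only 3 of 12 arrays matched best with an array of their own number.

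Ipo4 and Nup214 against hPGRN cells were past the threshold in all 22 alternatives, with adjusted p up to 0.0496 and 0.0460 in limma. Dim members such as Xpo1, Tnpo1 and Ranbp2 have signals near background, so changes in them were not detectable unless large.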
